A study of Mus musculus with 14 samples.

Results

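The genes described are receptors with which a phagocyte binds a dying cell, together with the soluble bridges that link receptor and corpse: Axl, Mertk, Tyro3, Gas6, Pros1, Mfge8, Stab1, Cd36, Lrp1 and Itgav. They were taken as every array probe that the scanner output names with one of these 10 symbols, which gave 21 probes for 10 of the 27343 gene names on the array. Expression was measured in 14 mouse samples of blood-forming cells on single-colour Agilent arrays, on which each probe is a spot of 60 bases read as a fluorescence intensity. Wild-type mice were compared with Rheb1-/- mice, in which floxed Rheb1 alleles (Rheb1fl/fl) had been recombined by Vav1-cre, a transgene active in the hematopoietic system. Rheb1, officially Rheb, encodes the small GTPase that activates the growth regulator mTORC1. There were 3 samples per genotype of myeloid progenitors (GMP in the sample titles), 3 per genotype of myeloid cells, and 1 per genotype of hematopoietic stem cells. Neither age nor treatment is given for any group, and the wild-type labels name no floxed or Cre allele. No label links a sample to an animal; p-values therefore measure only the spread between these samples, which may be technical.

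Clearance of dying cells, or efferocytosis, begins when phosphatidylserine is exposed on the dying cell surface. Axl, Mertk and Tyro3 are receptor tyrosine kinases that do not bind this lipid themselves. They reach it through the vitamin K-dependent bridge Gas6, and Mertk and Tyro3 also through another such bridge, protein S (Pros1). Mfge8 instead links the lipid to integrins that contain the alpha v subunit Itgav. Stab1 and Cd36 are scavenger receptors, and Lrp1 is a large endocytic receptor that recognises calreticulin on dying cells. In bone marrow, resident macrophages use this machinery to remove dying neutrophils and the nuclei that erythroblasts expel.

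Levels are given as the log2 processed intensity minus the 75th percentile of the array, so that 0 marks a spot as bright as that percentile. On each array 58.5% to 67.6% of the spots were well above background and 0 were saturated, and replicate arrays correlated across probes at 0.987 to 0.991. The small number of arrays limits the precision. The labelled cell types carried their markers: the summed level of 7 stem cell markers, in multiples of the 75th percentile, was 16.6 and 19.5 on the stem cell arrays and at most 1.51 elsewhere, and that of 11 neutrophil markers was 2600 to 3640 on the myeloid cell arrays and at most 1320 elsewhere. The sum of 9 myeloid progenitor markers was 1570 to 1920 on the progenitor arrays and at most 1480 elsewhere. Markers of eosinophils, basophils and mast cells were also highest on the progenitor arrays, at 465 to 883, against at most 197 elsewhere. The library labelled wild-type stem cells stood apart, because the sum of 8 resident macrophage markers was 185 there, against 7.4 on the Rheb1-/- stem cell array and 21 to 45.7 on the 12 others. Rheb itself, a check of the labels, did not overlap between genotypes in progenitors or in myeloid cells and was lower in the Rheb1-/- samples of both. Its log2 difference was -1.08 ± 0.22 (SE) in progenitors (limma adjusted p = 0.104) and -0.89 ± 0.22 in myeloid cells (limma adjusted p = 0.0121). The 3 wild-type myeloid cell arrays lay on 1 slide and the 3 Rheb1-/- ones on another, so genotype and slide cannot be told apart in myeloid cells, and the same holds for the stem cells. In progenitors 2 arrays of each genotype shared a slide, and the values given within the slide come from those 4.

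The probes by which the results below were read are shown by the first 30 of their 60 bases, 5′ to 3′ as the files list them, so that the transcript stretch behind each value can be identified. The file coordinates, in mm9, place them at chr7:26542953-26543012 (Axl, minus strand), chr2:128627867-128627924 (Mertk, plus strand), chr8:13465444-13465503 (Gas6, minus strand), chr5:17288600-17288659 and chr5:17289110-17291542 (Cd36 probes 1 and 2, minus strand) and chr10:126975573-126975632 and chr10:127024797-127024856 (Lrp1 probes 1 and 2, minus strand). Cd36 probe 2 spans 2433 bases of the genome, so its 60 bases lie on both sides of an intron. No annotation of this build was used here, and the exon or UTR of the other probes is therefore not given.
Axl: atcctgtatctcaaggaaatatgattctag
Mertk: agcaccaggtgaaagctgtcaagtcaggtt
Gas6: tgggctagaggggctggcagtttgcagcag
Cd36 probe 1: aagaatgaaaaatgaacaattcacatgtga
Cd36 probe 2: taagtagtggatgagcctacatatacactg
Lrp1 probe 1: tggggttagttcaggggaggtggagtcctc
Lrp1 probe 2: agctttggctatcattacagtaaaataaca

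In myeloid cells, 7 of the 9 genes that could be tested were lower without Rheb1. Axl, Mertk, Gas6 and Cd36 fell 3.35-fold to 3.93-fold (less with normexp background correction, where Mertk did not pass), while Mfge8, Stab1 and Lrp1 fell by smaller amounts, and Pros1 and Itgav did not pass the test. Of the 21 probes, 17 from 9 genes were bright enough to be tested; the 3 probes of Tyro3 and 1 of the 2 probes of Stab1 were not. By limma's test with Benjamini-Hochberg adjustment over all 27144 probes tested, 9 of the 17 probes fell and 0 rose, against 16.1% and 15.5% of all probes tested (31.6% either way). With 4202 probes higher and 4378 lower the calls were balanced, whereas quantile normalization gave 5290 and 3628, and all 9 member probes stayed called there. The median log2 difference was -0.44 over the 17 probes and -0.07 over all probes tested. The genotypes did not overlap in 10 of the 17 probes, all 10 lower and 0 higher, against 26.8% and 20.4% of all probes. Because the members were chosen with earlier results of these data known, the shares here and below are a description and no independent support. Leaving out wild-type array 3 left 4 member probes called and leaving out wild-type array 2 left 5. In samples of mixed cells, fewer cells of a type and less RNA per cell cannot be told apart.

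**Figure D1:**
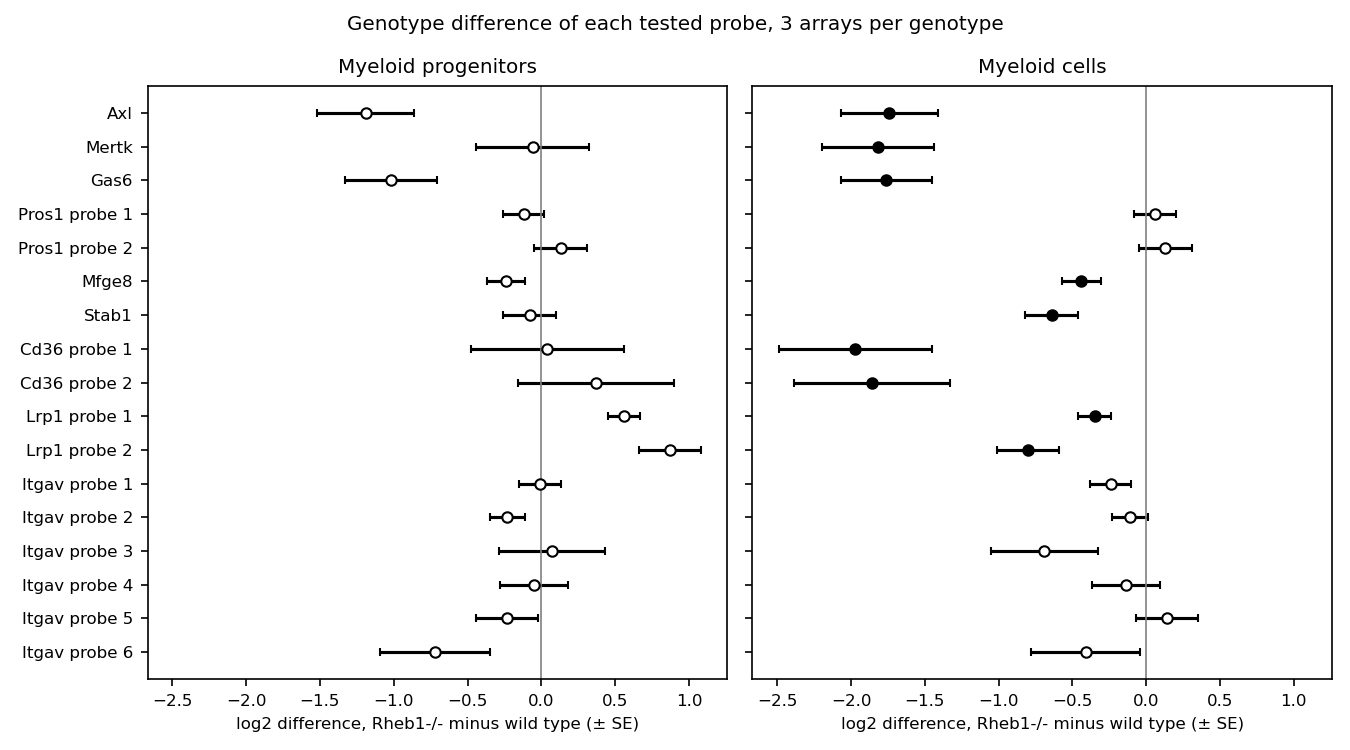
Log2 difference between Rheb1-/- and wild-type samples for each of the 17 tested probes, with its standard error, in myeloid progenitors (left) and myeloid cells (right), from 3 arrays per genotype. Filled points passed limma's adjusted p of 0.05: 9 probes in myeloid cells, all lower in Rheb1-/- samples, and none in progenitors.

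Among the receptor kinases, Axl, which signals in response to Gas6, read -1.29, -1.19 and -1.60 on the wild-type myeloid cell arrays and -2.35, -3.69 and -3.26 on the Rheb1-/- ones. Every Rheb1-/- array lay below every wild-type array. The log2 difference was -1.74 ± 0.33 (SE, n = 3 per genotype), a 3.35-fold fall (limma adjusted p = 0.00369). The call was kept in all 22 alternatives run (adjusted p 0.000476 to 0.0176), with differences from -2.12 to -1.23.

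Mertk, the family member that macrophages rely on to engulf dying cells, read -1.78, -2.60 and -2.98 on the wild-type myeloid cell arrays and -3.47, -4.80 and -4.56 on the Rheb1-/- ones. The groups again did not overlap, and the difference was -1.82 ± 0.38 (SE, n = 3 per genotype), a 3.54-fold fall (limma adjusted p = 0.00574). On wild-type array 1 the local background beside the Mertk spot was 366 intensity units and was marked as an outlier by the scanner software, against 40 to 46 on the 5 other myeloid cell arrays, while the spot itself read 231. With normexp background correction, which uses that local value, the difference was -0.03 (limma adjusted p = 0.957; 0.000867 to 0.957 over 21 alternatives). With such spots left out, a setting chosen after seeing the data, it was -0.60 and passed (limma adjusted p = 0.0487).

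Tyro3, the third kinase of the family, was hardly detected. Its leading probe (highest mean over the 12 replicated arrays) was well above background on 3 of 14 arrays, namely 2 wild-type myeloid cell arrays and the wild-type stem cell array. There it read -6.04, -5.85 and -5.95 on the wild-type myeloid cell arrays and -6.46, -6.21 and -6.54 on the Rheb1-/- ones. Another probe was well above background on 3 arrays, both stem cell arrays and 1 of wild-type progenitors, and the last probe on 0 of 14. No test was made of Tyro3.

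Of the bridges, Gas6, the ligand of all 3 kinases, read -2.79, -2.14 and -1.91 on the wild-type myeloid cell arrays and -3.85, -4.47 and -3.80 on the Rheb1-/- ones. The wild-type arrays were all higher. Gas6 fell 3.39-fold, a log2 difference of -1.76 ± 0.31 (SE, n = 3 per genotype), with a limma adjusted p of 0.00258, and the call held in all 22 alternatives (adjusted p 0.000362 to 0.0116). The difference ran from -2.02 to -0.94 over them, with the smallest fall under normexp. Pros1, the other kinase ligand, read -0.48, -0.44 and -0.94 on the wild-type arrays and -0.70, -0.48 and -0.49 on the Rheb1-/- ones. The genotypes overlapped, with differences of 0.06 ± 0.14 and 0.13 ± 0.18 for its 2 probes (limma adjusted p = 0.776 and 0.627). Mfge8, the bridge to integrins, read 1.74, 2.09 and 1.88 on the wild-type arrays and 1.58, 1.42 and 1.39 on the Rheb1-/- ones. Although the groups did not overlap, the fall was small, at 1.36-fold (-0.44 ± 0.13, limma adjusted p = 0.0237). The call ended when wild-type array 2 or 3 or Rheb1-/- array 2 or 3 was left out (limma adjusted p 0.0529 to 0.0865), with normexp (0.0646) and without a filter (0.0506; 0.00424 to 0.0865 over 22 alternatives).

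Cd36, a scavenger receptor for oxidised lipids and dying cells, was lower without Rheb1 by both of its probes. Probe 1 read -2.12, -1.08 and -1.35 on the wild-type myeloid cell arrays and -2.48, -4.78 and -3.21 on the Rheb1-/- ones. Probe 2 read -2.86, -2.02 and -2.02 against -3.05, -5.14 and -4.29. Neither probe's genotypes overlapped, though the lowest wild-type and the highest Rheb1-/- array lay close together in both. The differences were -1.97 ± 0.52 and -1.86 ± 0.53 (SE, n = 3 per genotype), or 3.93-fold and 3.63-fold (limma adjusted p = 0.0165 and 0.0226). Without wild-type array 2 or 3 neither probe passed (limma adjusted p 0.0516 to 0.0714), and without Rheb1-/- array 2 or 3 probe 2 did not (0.0769 and 0.065). The differences were smaller with normexp, at -1.22 and -1.08, and probe 1 gave -1.33 without Rheb1-/- array 2. A fit on the myeloid cell arrays alone also ended the call of probe 1 (limma adjusted p = 0.0559; 0.00146 to 0.0579 over 21 alternatives).

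Stab1, a scavenger receptor that binds phosphatidylserine, read -1.78, -1.90 and -1.40 on the wild-type myeloid cell arrays and -2.70, -2.07 and -2.23 on the Rheb1-/- ones by its leading probe. The groups did not overlap, and the level fell 1.55-fold (-0.64 ± 0.18, limma adjusted p = 0.0237). Without wild-type array 3 the value was -0.49 (limma adjusted p = 0.0834) and without Rheb1-/- array 1 it was -0.45 (0.0683), and with the myeloid cell arrays alone it also missed the threshold (0.0704; 0.00606 to 0.0834 over 22 alternatives). The second Stab1 probe was well above background on 1 of 14 arrays.

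Lrp1 read 2.38, 2.46 and 2.20 on the wild-type myeloid cell arrays and 1.92, 2.07 and 1.99 on the Rheb1-/- ones by probe 1, and -1.64, -1.53 and -1.28 against -2.37, -2.33 and -2.15 by probe 2. All Rheb1-/- arrays were lower by both probes. The falls were 1.27-fold (-0.35 ± 0.11, limma adjusted p = 0.0294) and 1.74-fold (-0.80 ± 0.21, limma adjusted p = 0.0170). Probe 1 missed the threshold without wild-type array 1 or 2 or Rheb1-/- array 1 or 3 (limma adjusted p 0.0682 to 0.101), with normexp (0.0619), without a filter (0.0644) and with the myeloid cell arrays alone (0.0669; 0.0071 to 0.101 over 22 alternatives). Probe 2 missed it without wild-type array 3 (0.0612) or Rheb1-/- array 2 (0.05). Itgav, the integrin subunit that receives Mfge8, read -1.55, -1.28 and -1.13 on the wild-type arrays and -1.33, -1.65 and -1.71 on the Rheb1-/- ones by its leading probe, and the genotypes overlapped. Its 6 probes differed by -0.69 to 0.14, and none passed (limma adjusted p 0.165 to 0.673).

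By the processed signal 4 genes fell by more than 3-fold, namely Axl, Mertk, Gas6 and Cd36. With normexp Mertk differed by -0.03 and did not pass, and the others fell by less. The promoters of all 4 are shown because these genes were lower together by the processed signal. Each is the 250 bases before the gene's start in RefSeq, on GRCm38.p6, 5′ to 3′ on the gene's strand: chr7:25788734-25788983 (Axl, minus strand), chr2:128698665-128698914 (Mertk, plus strand), chr8:13494536-13494785 (Gas6, minus strand) and chr5:17835897-17836146 (Cd36, minus strand). Capitals mark matches on either strand to the GC box GGGCGG, to the PU.1-like core GAGGAA and to the Maf core TGCTGA. The AP-1 site TGANTCA and the E-box CACGTG were searched too, and no matches overlapped in the promoters shown.
Axl: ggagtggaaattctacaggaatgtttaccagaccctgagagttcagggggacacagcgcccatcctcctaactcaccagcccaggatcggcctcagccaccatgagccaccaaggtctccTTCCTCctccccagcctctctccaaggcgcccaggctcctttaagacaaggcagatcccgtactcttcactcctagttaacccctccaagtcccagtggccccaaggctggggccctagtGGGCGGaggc
Mertk: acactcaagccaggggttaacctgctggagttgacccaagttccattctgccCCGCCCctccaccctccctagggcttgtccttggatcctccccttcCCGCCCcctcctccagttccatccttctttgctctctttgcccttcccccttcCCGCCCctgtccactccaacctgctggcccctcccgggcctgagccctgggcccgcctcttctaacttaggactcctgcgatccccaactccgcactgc
Gas6: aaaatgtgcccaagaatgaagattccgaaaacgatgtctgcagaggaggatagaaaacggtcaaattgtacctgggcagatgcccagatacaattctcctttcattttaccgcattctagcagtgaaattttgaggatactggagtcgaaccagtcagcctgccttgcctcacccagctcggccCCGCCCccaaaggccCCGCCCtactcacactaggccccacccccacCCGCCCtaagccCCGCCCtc
Cd36: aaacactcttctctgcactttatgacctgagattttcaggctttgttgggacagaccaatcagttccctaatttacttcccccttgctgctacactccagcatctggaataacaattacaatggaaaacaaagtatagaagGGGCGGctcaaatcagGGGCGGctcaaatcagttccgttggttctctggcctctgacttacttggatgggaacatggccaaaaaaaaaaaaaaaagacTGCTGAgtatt
All 4 held at least 1 GC box, with 4 in Gas6, 3 in Mertk, 2 in Cd36 and 1 in Axl. Axl alone of the 4 held the PU.1-like core, and Cd36 alone the Maf core. Among the promoters of all 10 genes, which were all found in the RefSeq table, 8 held a GC box, 4 the PU.1-like core, 2 the Maf core and 0 either of the other motifs. Among 32851 promoters of the same length the shares were 32.7%, 23.3%, 16.1%, 6.75% (AP-1) and 6.02% (E-box). A match is only a description of these letters.

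Markers of several cell types moved with genotype in the myeloid cells, and their part in the results above was not tested. The summed level of 8 resident macrophage markers was 41.4 to 45.7 on the wild-type arrays and 32.2 to 35.6 on the Rheb1-/- ones, with all 8 well above background on every myeloid cell array. Of these genes 5 fell, namely Cd5l (-2.68), Cd163 (-2.50), Spic (-2.05), Siglec1 (-1.86) and Slc40a1 (-0.89); Vcam1 rose (1.09), while Adgre1 (-0.44) and Marco (-0.73) did not pass limma's test. A second Siglec1 probe differed by -0.21 and did not pass. Monocyte markers summed to 446 to 490 against 340 to 361, with 1 of 6 genes falling, and neutrophil markers to 3270 to 3640 against 2600 to 3220. Erythroid markers summed to 709 to 1140 against 99.8 to 436, with 8 of 9 genes falling. Dendritic cell markers summed to 2.88 to 3.05 against 0.741 to 1.39, and B cell markers to 12 to 24 against 6.65 to 9.05. Megakaryocyte and platelet markers summed to 3.76 to 6.15 against 1.84 to 2.87, with 6 of 9 genes falling. T and NK cell markers summed higher without Rheb1, at 39.7 to 57.4 against 20.4 to 26.8, although 5 of 8 genes fell and 1, Nkg7, rose. Stromal and endothelial markers summed to 1.31 to 2.15 against 0.893 to 1.86, with 3 of 7 tested genes falling, and those of eosinophils, basophils and mast cells to 119 to 181 against 92 to 144. Markers of myeloid progenitors were higher without Rheb1, at 1070 to 1480 against 614 to 740, and 8 of 9 genes rose.

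**Figure D2:**
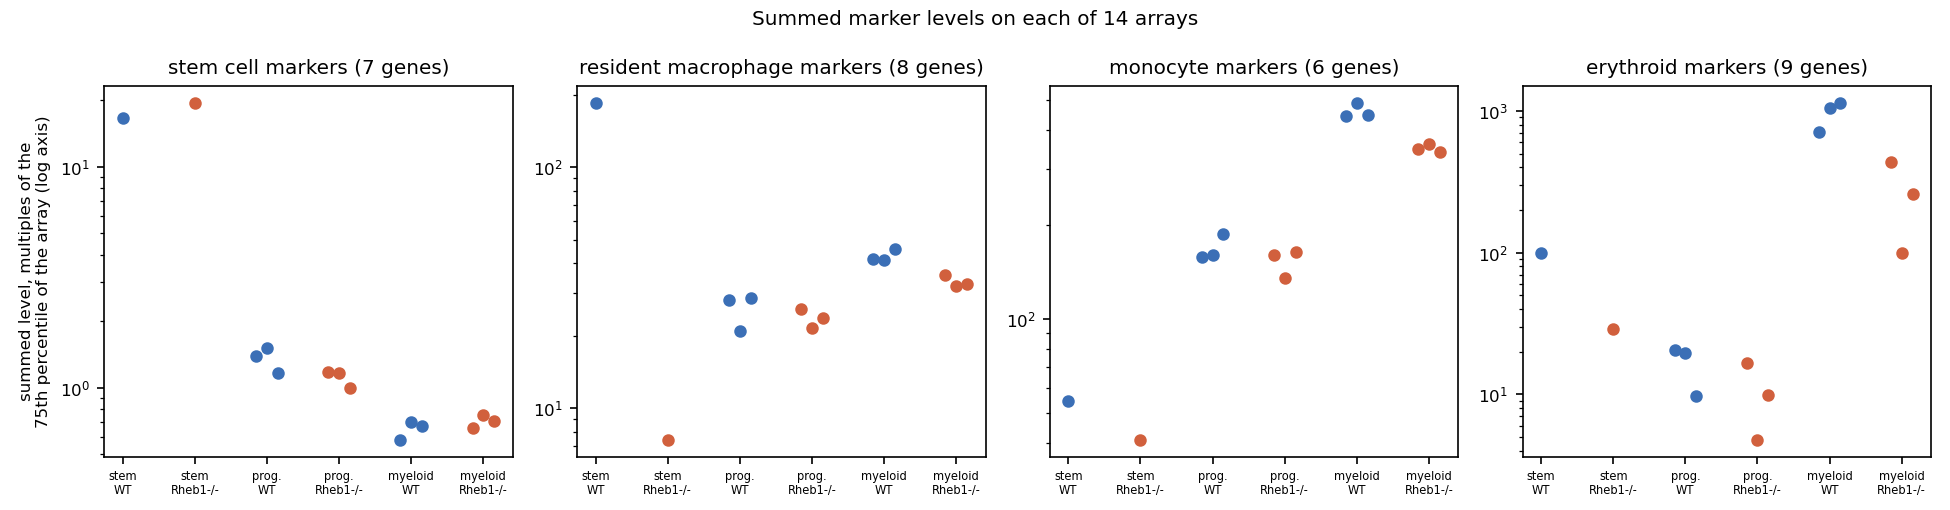
Summed level of stem cell, resident macrophage, monocyte and erythroid markers on each of the 14 arrays, in multiples of the array's 75th percentile on log axes, with wild type in blue and Rheb1-/- in orange. The wild-type stem cell array stands at 185 for resident macrophage markers and the Rheb1-/- one at 7.4, while their stem cell markers are 16.6 and 19.5.

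In myeloid progenitors no member passed the test between genotypes, although Axl and Gas6 read lower and Lrp1 higher on every Rheb1-/- array. By limma 0 of 17 probes were called, and 4 had an unadjusted p under 0.05. No share of all probes was taken for unadjusted p, so this count and the later ones of that kind do not set genes apart. Over all probes tested 0.0958% were called, 0.0700% or 19 higher and 0.0258% or 7 lower (9 and 18 with normexp). The genotypes did not overlap in 2 member probes that were higher and 2 that were lower, against 11.1% and 8.09% of all probes. These counts lie near those shares and do not set the members apart from the rest of the array. The median difference was -0.06 over the members and 0.02 over all probes.

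Axl read -4.21, -3.80 and -3.89 on the wild-type progenitor arrays and -4.63, -5.54 and -5.31 on the Rheb1-/- ones, a difference of -1.19 ± 0.33 (limma adjusted p = 0.203, within the slide -1.24). Gas6 read -4.38, -4.05 and -4.42 against -4.95, -5.03 and -5.93, a difference of -1.02 ± 0.31 (limma adjusted p = 0.26, within the slide -0.76). The wild-type arrays were higher for both genes. Lrp1 went the other way: probe 1 read -0.64, -0.58 and -0.47 on the wild-type arrays and -0.16, 0.14 and 0.00 on the Rheb1-/- ones, and probe 2 read -5.52, -5.25 and -4.54 against -4.31, -4.14 and -4.24. The differences were 0.56 ± 0.11 and 0.87 ± 0.21 (limma adjusted p = 0.0888 and 0.155), and 0.51 and 0.67 within the slide. With normexp they shrank to -0.37 for Axl, -0.29 for Gas6 and 0.20 for Lrp1 probe 2 (limma adjusted p = 0.749, 0.745 and 0.898). Of the 3 wild-type arrays 2 had probe 2 well above background, and without wild-type array 3 its difference of 1.15 passed (limma adjusted p = 0.0238; 0.0238 to 0.92 over 22 alternatives). Mertk was not well above background on any progenitor array, and Cd36 was so on 1 array of each genotype by probe 1, so neither could show a lower level there. Mfge8 (-0.24), Stab1 (-0.08), Pros1 (-0.12 and 0.13) and Itgav (-0.72 to 0.07) did not pass. Resident macrophage markers summed to 21 to 28.8 on wild-type and 21.6 to 25.8 on Rheb1-/- progenitor arrays, and none of their 13 tested probes passed (3 at an unadjusted p under 0.05 by limma). Vcam1, whose brightest probe differed by 0.00 ± 0.13, makes up most of that sum. Spic, a macrophage transcription factor, read -2.60, -2.61 and -2.98 on the wild-type arrays and -4.04, -5.27 and -4.80 on the Rheb1-/- ones. It differed by -1.97 and -2.50 by its 2 probes (limma adjusted p = 0.114 and 0.172). Cd163 differed by -0.88 with overlap between the genotypes (limma adjusted p = 0.513). By their brightest probes Adgre1, Cd5l, Slc40a1 and Marco overlapped too, and Siglec1 was not well above background on any progenitor array. Megakaryocyte and platelet markers summed to 29.6 to 47.2 against 7 to 15.2, and those of eosinophils, basophils and mast cells to 740 to 883 against 465 to 826. Their part in these differences was not tested.

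Among the members, only Lrp1 had a genotype difference that was itself called as different between the cell types. Subtracting the difference in progenitors from that in myeloid cells gave -0.91 ± 0.15 for probe 1 (limma adjusted p = 0.0107) and -1.67 ± 0.30 for probe 2 (limma adjusted p = 0.0140). These 2 were the only ones called among the 17 member probes. Of all probes tested 9.38% were called, 4.63% or 1256 higher and 4.75% or 1290 lower (1892 and 1061 with quantile normalization). The count of 2 among 17 lies near the share called either way and does not set the members apart from the rest of the array. Both Lrp1 calls were kept in every alternative run, with adjusted p up to 0.0346, but with normexp the value of probe 2 was -0.81. Mertk (-1.77, limma adjusted p = 0.0649) and Cd36 (-2.01 and -2.23, limma adjusted p = 0.107 and 0.0841) did not pass. Mertk did pass with slide as a random block (-1.81, limma adjusted p = 0.0417), which cannot separate slide from genotype in myeloid cells. It also passed without Rheb1-/- myeloid array 1 (-2.17, limma adjusted p = 0.021, with 0.021 to 0.992 over 20 alternatives). Both Cd36 probes passed without that array (-2.51 and -2.78, limma adjusted p = 0.0407 and 0.027) and with normexp (limma adjusted p = 0.0298 and 0.0285; up to 0.193 over the alternatives of either probe). For Axl (-0.55) and Gas6 (-0.74) the genotype differences in the 2 cell types were not shown to differ (limma adjusted p = 0.471 and 0.295).

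**Figure D3:**
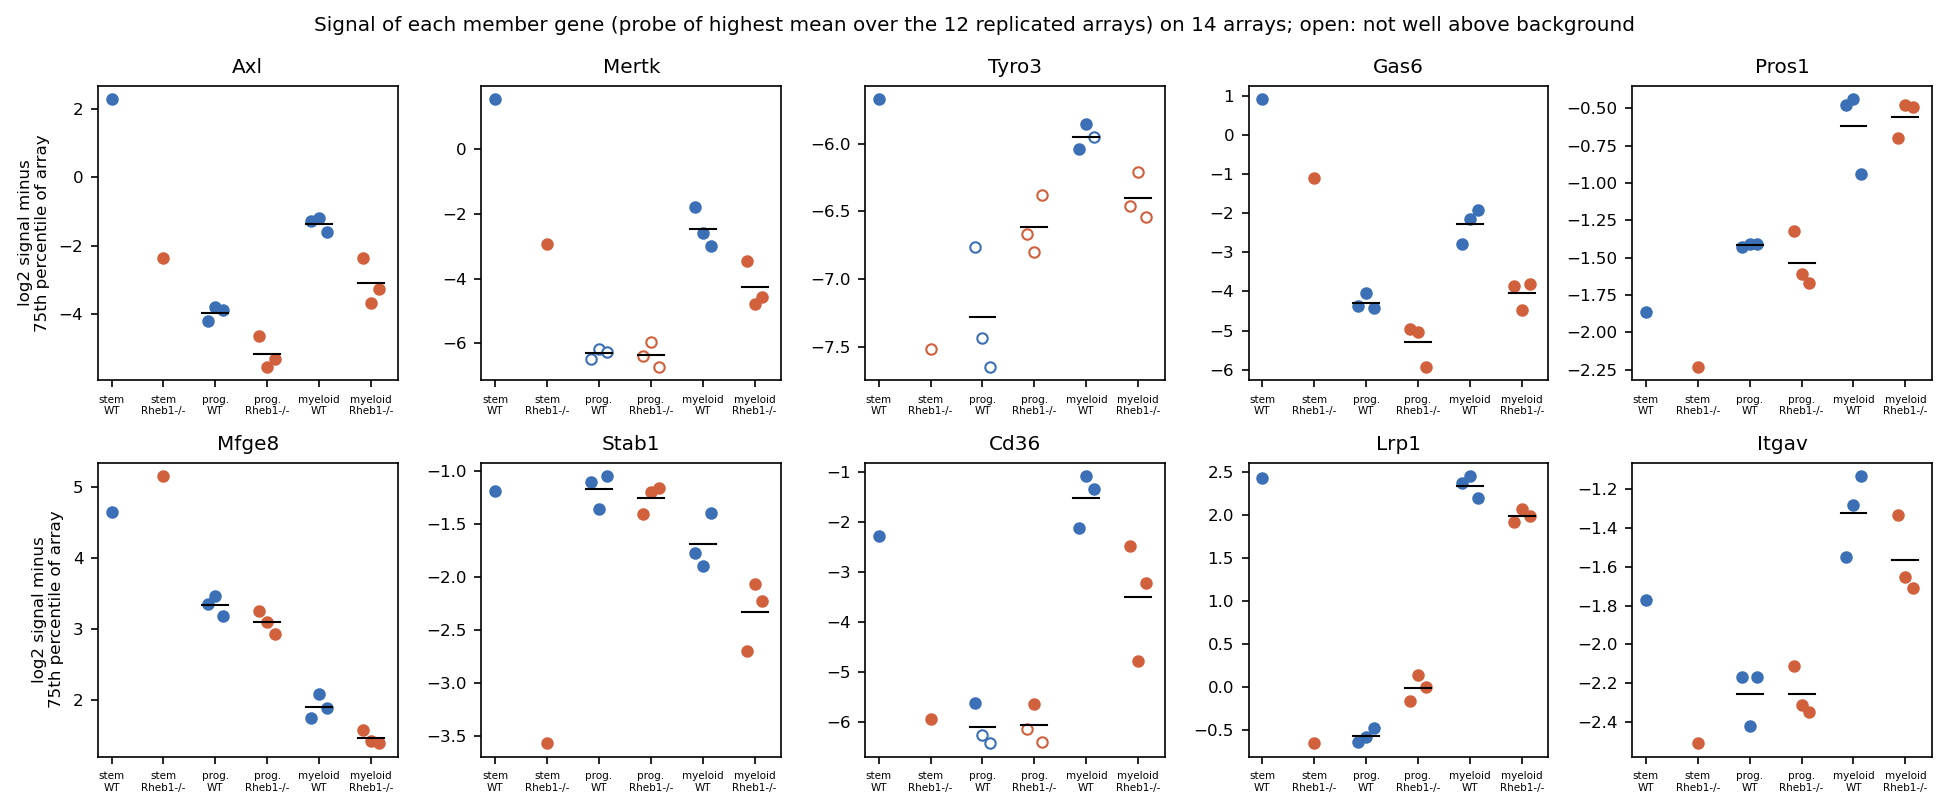
Level of each of the 10 genes on the 14 arrays by the probe of highest mean over the 12 replicated arrays, as log2 intensity minus the array's 75th percentile, with wild type in blue, Rheb1-/- in orange and the group mean as a line. Open points were not well above background; for Axl the wild-type stem cell array reads 2.27 and the Rheb1-/- progenitors average -5.16.

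Apart from genotype, the receptors and bridges separated the cell types. In wild-type samples 14 of the 17 probes were higher in myeloid cells than in progenitors and 2 were lower, Mfge8 and Stab1. Among the 14, Mertk and both Cd36 probes were bright enough to be tested only through the myeloid cells, where they were high. Their rises, counted in both genotypes, were therefore favoured by the filter and add no support. The counts without overlap and the medians below include these probes too. Over all probes tested 38.1% rose and 38.7% fell (76.8% either way), so a change of some kind was common. The same 14 and 2 probes did not overlap between the cell types, against 39.4% and 39.6% of all probes. The median difference was 0.93 over the member probes and 0.02 over all probes. In Rheb1-/- samples again 14 rose and 2 fell, against 29.6% and 38.5% of all probes (68.1% either way), with a median of 0.91 against -0.10. Without overlap were 13 higher and 2 lower, against 32.1% and 40.9%. Each of these comparisons shares its samples with the genotype comparisons above. In wild-type samples no slide held both cell types, so cell type and slide cannot be told apart there. In Rheb1-/- samples only progenitor array 3 lay on the slide of the myeloid cells.

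Axl averaged -3.97 ± 0.22 in wild-type progenitors and -1.36 ± 0.21 in wild-type myeloid cells (SD, n = 3 each), a 6.10-fold rise (limma adjusted p = 3.44e-05). In Rheb1-/- samples the rise was 4.17-fold (limma adjusted p = 0.000254). By the processed signal alone, Mertk was at least 10.2-fold higher in wild-type myeloid cells, and at least 3.53-fold in Rheb1-/- ones, than the progenitors, where it was not well above background. These bounds set the myeloid cell mean against, for each progenitor array, the higher of the Mertk signal and the lowest signal of any probe well above background. With normexp these bounds did not hold. The Mertk calls were lost there, at log2 differences of 0.56 in wild-type and 0.57 in Rheb1-/- samples (limma adjusted p = 0.187 and 0.202, the highest over 21 alternatives each). With spots of outlying local background left out, a setting chosen after seeing the data, they were 1.12 and 0.57 and passed (limma adjusted p = 0.000333 and 0.0167). Gas6 rose by 2.01 ± 0.31 in wild-type and 1.26 ± 0.31 in Rheb1-/- samples (log2, limma adjusted p = 0.000151 and 0.00406). With normexp these rises were 1.10 and 0.45, and those of Axl were 1.79 and 0.94, all 4 still called. Axl and its ligand were thus both higher in myeloid cells of either genotype.

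Cd36 rose by 4.58 and 4.16 in wild-type samples by its 2 probes (limma adjusted p = 1.51e-05 and 3.51e-05) and by 2.57 and 1.93 in Rheb1-/- ones (0.00126 and 0.00753). These sizes rest on progenitor levels near background: Cd36 was well above background on 1 of 3 wild-type progenitor arrays by each probe and on 1 and 2 of 3 Rheb1-/- ones. Probe 1 read -5.61, -6.25 and -6.42 on the wild-type progenitor arrays. With normexp Cd36 rose by 2.19 and 1.73 in wild-type and by 0.94 and 0.62 in Rheb1-/- samples, and all 4 calls were kept. Lrp1 rose 7.51-fold by probe 1 in wild-type samples (2.91 ± 0.11, limma adjusted p = 1.01e-08) and also rose in Rheb1-/- ones (2.00 ± 0.11, limma adjusted p = 1.43e-07), and by 3.62 and 1.95 by probe 2 (1.97 and 1.16 with normexp). Pros1 rose by 0.80 and 0.92 in wild-type and 0.97 and 0.91 in Rheb1-/- samples. Itgav rose by 5 of its 6 probes in each genotype, with differences from 0.24 to 1.66 and from 0.54 to 0.91. The highest, of A_52_P601264, was 0.82 with normexp. The Itgav probe A_51_P498205 lost its wild-type call in 11 of 20 alternatives and A_52_P601264 its Rheb1-/- call in 13 of 20. The former lost it without wild-type progenitor array 2 or 3 or any wild-type myeloid array (0.32 to 0.59). The latter lost it without any 1 array other than wild-type progenitor arrays 2 and 3 and Rheb1-/- myeloid array 3 (0.68 to 1.01). The Itgav probe A_52_P30341 lost its Rheb1-/- call without Rheb1-/- myeloid array 2 (0.62), and A_52_P102916, not called otherwise, passed without Rheb1-/- progenitor array 2 (0.90).

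Mfge8 ran opposite to the others, averaging 3.33 ± 0.14 in wild-type progenitors and 1.90 ± 0.17 in wild-type myeloid cells (SD, n = 3 each). It fell in both genotypes, with log2 differences of -1.43 ± 0.13 (SE) in wild-type and -1.63 ± 0.13 in Rheb1-/- samples (limma adjusted p = 2.18e-06 and 1.41e-06). Stab1 also fell in both, by differences of -0.52 ± 0.18 and -1.08 ± 0.18 (limma adjusted p = 0.0226 and 0.000374). The wild-type fall of Stab1 missed the threshold without wild-type progenitor array 1 or 3 or wild-type myeloid array 1 or 2 (-0.42 to -0.49, limma adjusted p 0.0612 to 0.0844, the latter the highest over 22 alternatives).

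In stem cells, with 1 array of each genotype, the values describe those 2 libraries and were not tested. Axl read 2.27 on the wild-type array and -2.35 on the Rheb1-/- one, and Mertk 1.54 and -2.94. Gas6 read 0.92 and -1.10, Cd36 -2.28 and -5.94 by probe 1 and -1.98 and -5.92 by probe 2, and Lrp1 2.44 and -0.65 by probe 1 and -3.38 and -4.89 by probe 2. Stab1 read -1.19 and -3.57. The wild-type array was thus 24.6-fold higher for Axl and 22.3-fold higher for Mertk, and higher by 12.6-fold and 15.3-fold for Cd36, 8.54-fold and 2.84-fold for Lrp1, 5.21-fold for Stab1 and 4.05-fold for Gas6. With normexp the log2 differences were smaller for Cd36 (-1.69 and -2.02, against -3.65 and -3.94), Stab1 (-1.65 against -2.38) and Lrp1 probe 2 (-0.86 against -1.51, under 2-fold). Mfge8 went the other way, at 4.64 and 5.15, and Pros1 read -1.86 and -2.23 by its leading probe. Of 18 member probes well above background on both arrays, 8 were at least 2-fold lower on the Rheb1-/- array and 0 at least 2-fold higher, against 5.69% and 4.72% of 25973 such probes.

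All 8 resident macrophage markers were lower on the Rheb1-/- stem cell array as well, by -3.51 (Marco) to -5.98 (Cd5l). Their sum differed 25-fold between the arrays, while the 7 stem cell markers, all well above background on both, summed to 16.6 and 19.5. Erythroid markers summed to 100 and 29, and those of eosinophils, basophils and mast cells to 197 and 27.7. The part of these markers in the stem cell values was not tested, and the 2 arrays lay on different slides scanned on different days.

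Ordered by level, Axl and Mertk were both highest on the wild-type stem cell array, followed by wild-type myeloid cells, the Rheb1-/- stem cell array and Rheb1-/- myeloid cells. Axl was lower in wild-type progenitors and lowest in Rheb1-/- ones, while Mertk, not well above background in progenitors, has no order there. The wild-type stem cell level is that of 1 library, which also had the highest sum of resident macrophage markers (185). The part of those markers in these orders was not tested. For Axl the Rheb1-/- stem cell array, at -2.35, equalled the highest Rheb1-/- myeloid array, and for Mertk the Rheb1-/- stem cell array lay inside the range of the wild-type myeloid cells. Gas6 was highest on the 2 stem cell arrays, and its Rheb1-/- myeloid cells (-4.04 ± 0.37) overlapped the wild-type progenitors (-4.29 ± 0.21, SD, n = 3 each). Mfge8 descended from stem cells through progenitors (3.33 ± 0.14 and 3.09 ± 0.17) to myeloid cells (1.90 ± 0.17 and 1.46 ± 0.10), with overlap between the progenitor genotypes. By probe 1, Lrp1 read alike on the wild-type stem cell array (2.44) and in wild-type myeloid cells (2.35 ± 0.14), and lowest on the Rheb1-/- stem cell array. Probe 2 gave another order, with wild-type myeloid cells (-1.48 ± 0.18) above wild-type stem cells (-3.38), and with the lowest level in progenitors of wild type (-5.10 ± 0.51).

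Other genes of the engulfment pathway were counted from 6 lists covering receptors, bridges, engulfment signalling, lipid handling, find-me receptors with do-not-eat-me signals, and sheddases. Of 76 tested probes from 46 genes, 12 rose and 15 fell between genotypes in myeloid cells by limma, with a median difference of -0.15 against -0.07 over all probes. Those counts lie near the shares of all probes tested, 15.5% higher and 16.1% lower, so neither they nor the counts of the single lists, of 3 to 24 probes each, set these genes apart from the rest of the array. In progenitors 0 passed, and 14 had an unadjusted p under 0.05 by limma, a count with no share of all probes to set it against.

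Among other recognition receptors in myeloid cells 3 of 18 probes rose and 5 fell. By the processed signal alone, Timd4, a phosphatidylserine receptor of resident macrophages, was at least 4.08-fold lower in Rheb1-/- cells (limma adjusted p = 0.00783). It was well above background on 3 wild-type and 0 Rheb1-/- myeloid cell arrays. The filter may therefore have favoured this fall, which adds no support. Cd300lf, which also binds phosphatidylserine, fell by 0.81 (log2, limma adjusted p = 0.00448), while Cd14, the lipopolysaccharide co-receptor, rose by 2.20 (limma adjusted p = 0.00605). Among bridges and opsonins 2 of 9 probes rose and 3 fell. The complement subunits C1qc (-1.87, limma adjusted p = 0.00781) and C1qb (-1.39, limma adjusted p = 0.0155) fell, and Calr, the calreticulin that Lrp1 recognises, rose by 1.10 (limma adjusted p = 0.000344). In progenitors C1qc differed by -2.03 and did not pass (limma adjusted p = 0.112).

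Inside the phagocyte, engulfment signalling had 4 probes higher and 3 lower of 24. Dock1, which activates Rac during uptake, rose by 0.55 (limma adjusted p = 0.00588), and the adaptors Gulp1 (-0.60, limma adjusted p = 0.0149) and Crkl (-0.33, limma adjusted p = 0.0187) fell. For lipid handling 1 of 10 probes rose and 2 fell: Nr1h3, the oxysterol receptor LXR alpha, fell by 0.59 (limma adjusted p = 0.00532), whereas 2 probes of the transporter Abca7 disagreed, at -0.37 and 0.66 (limma adjusted p = 0.0378 and 0.0465). Of 12 probes for find-me receptors and do-not-eat-me signals 2 rose and 2 fell. The sphingosine 1-phosphate receptor S1pr1 (-1.70, limma adjusted p = 0.00494) and the fractalkine receptor Cx3cr1 (-0.97, limma adjusted p = 0.0108) fell, and the nucleotide receptor P2ry2 rose by 0.51 (limma adjusted p = 0.00652). None of 3 probes for the sheddases that release Axl and Mertk passed (0 at an unadjusted p under 0.05 by limma), with Adam17 at -0.21.

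In progenitors the gene of smallest p in each of these lists did not pass limma's test either. These were Adgrb1 (0.46, adjusted p = 0.107), C1qc as above, Dock1 (0.32, 0.28), Nr1h3 (0.42, 0.271), P2ry2 (0.34, 0.289) and Adam17 (-0.16, 0.693).

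**Figure D4:**
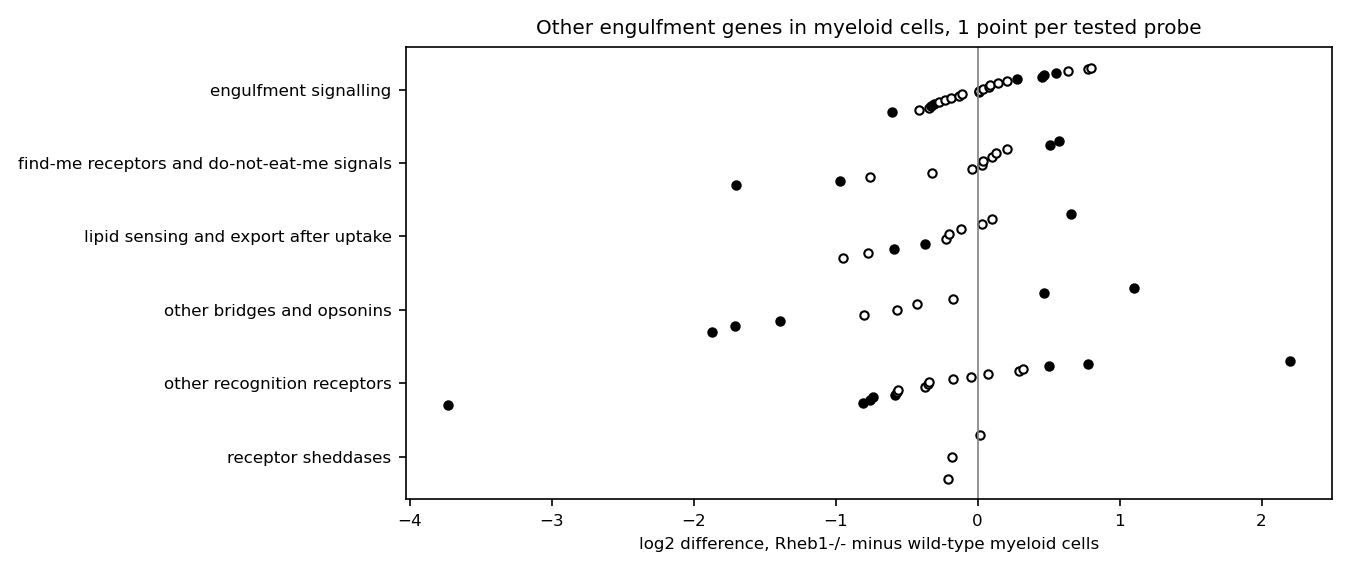
Log2 difference between Rheb1-/- and wild-type myeloid cells for the 76 tested probes of 6 further engulfment lists, 1 point per probe and 1 band per list, filled where limma's adjusted p was under 0.05. The points spread to both sides, with 12 filled probes higher and 15 lower.

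The genes whose pattern was most like each member's were taken by Pearson correlation over the 12 replicated arrays among 14226 genes, as a description, since these arrays share the split into cell types. They were Lpl (0.987) and C1qc (0.986) for Axl, Rmc1 (0.986) and Irgm2 (0.984) for Mertk, and Rab11fip4 (0.971) and Fam126a (0.967) for Gas6. For Pros1 they were Cav2 (0.982) and Dnase1l1 (0.980), for Mfge8 Tmem229b (0.995) and Tmem158 (0.994), and for Stab1 Kif17 (0.960) and AI463229 (0.940). For Cd36 they were Cyp4b1 (0.992) and Hbq1a (0.989), for Lrp1 Fam217b (0.996) and Cd33 (0.995), and for Itgav Gnaq (0.990) and Celf4 (0.987). Lpl, next to Axl, is lipoprotein lipase, C1qc is the complement subunit described above, and Hbq1a, next to Cd36, is a globin.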

How the data were processed

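Cy3-labelled cRNA made from total RNA of 14 samples was read on arrays of 1 colour, per the labels' protocols. The intensity analysed was gProcessedSignal, the spot brightness after Agilent Feature Extraction's background subtraction and spatial detrending, per the file headers, with no scaling between arrays. The headers name version 10.7.3.1 and the submitters' processing notes 9.1. The normexp alternative (offset 50) used the spots' mean intensity and local background, per the file headers. The deposited value table holds log2 values that look quantile normalized (sorted columns differed by at most 0.00234, median 5.92); they followed the log2 processed intensity with correlations of 0.998 to 1.00. How its background was handled the sources used here do not say.

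Besides 1639 controls there were 43379 spots per array, of which 79 to 195 marked as outliers were dropped. Spots of a probe were averaged to 41174 probes. A RefSeq table gave names through accession (27668 probes), symbol (5589) or older symbol (471), and 7446 kept the file's name. Coordinates are the files' own, in mm9.

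The log2 intensity, centred on each array's 75th percentile, was fitted per probe with limma 3.58.1 (R 4.3.3, statmod 1.5.0, and 1.17.8 of data.table), 1 mean per group over 12 arrays. A probe was tested if every array of some replicated group had it well above background and each such group had at least 2 values. Calls were two-sided at an adjusted p of 0.05 over 27144 probes. The residual degrees of freedom were 8, the prior ones 2.11 and the median residual SD 0.185. The fit was tested on simulated data. Of each pathway list up to 3 passing genes of smallest adjusted p per genotype comparison were named, or the 1 of smallest p as a value where none passed. The members and lists were chosen with earlier results of these data known. Alternatives were normexp, quantile normalization, the deposited values, 1 probe per gene name, no filter, a filter on all 12 arrays, a block on replicate number or on slide, only the arrays compared, and each array left out.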

Additional observations from a re-analysis of the deposited data

Results flagged for a closer look

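The genotype difference of Lrp1, the endocytic receptor that recognises calreticulin, differed between myeloid cells and progenitors in a test of that difference by limma. Probe A_51_P193794 gave -0.91 and probe A_52_P202045 gave -1.67 on the log2 scale, each with 3 arrays per genotype and cell type. With normexp background correction both gave -0.81 and both calls were kept. Both probes were higher on every Rheb1-/- progenitor array and lower on every Rheb1-/- myeloid cell array than on the wild-type arrays of the same cell type. Of all probes tested, 9.38% were called for this difference, so such a call was not rare. In progenitors 11.1% of them were higher without overlap, and in myeloid cells 26.8% were lower without overlap. Genotype and slide cannot be told apart in the myeloid cells.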

How the results depend on the processing

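In myeloid cells the falls of Axl and Gas6 kept their call in all 22 alternatives, and all 9 member calls held with quantile normalization, the deposited table and replicate number as a block. They also held with slide as a random block. No slide held myeloid cells of both genotypes, so that setting cannot separate slide from genotype. The count of members that fell, 9, became 5 when only probes well above background on all 12 arrays were tested, which removes Mertk, Cd36 and 1 Lrp1 probe by construction, and ran from 4 to 9 with single arrays left out. Values near 0 turned sign there for Pros1 (0.00 with normexp; -0.10 to 0.15 and -0.01 to 0.28 with single arrays left out) and for 2 Itgav probes (0.05 and 0.15 with quantile normalization and with the deposited table; -0.26 to 0.06 for the latter with single arrays left out).

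In progenitors the 26 probes called over the whole array became 13 with 1 probe per gene name, 11 without a filter, 4 with slide as a fixed block and 0 with only the progenitor arrays or only those of the shared slide, and 6 to 102 with single arrays left out, where member probes that rose numbered 0 to 1. Among uncalled member values there, the turned signs were Cd36 -0.07 and Itgav 0.00 and -0.02 with quantile normalization and the deposited table, Cd36 0.00 with slide as a random block, and Mertk 0.03 and Itgav 0.08 with slide fixed or on the shared slide alone. With single arrays left out the ranges were -0.26 to 0.12 for Mertk, -0.17 to 0.28 and -0.03 to 0.71 for Cd36, and -0.09 to 0.04, -0.23 to 0.26 and -0.27 to 0.14 for 3 Itgav probes.

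For the difference of genotype effects 2546 probes were called. The count was 1018 without a filter, 1613 with normexp without spots of outlying local background (chosen after seeing the data), and 1131 to 2871 with single arrays left out. Member probes that fell, 2, became 4 with normexp, with or without those spots, 1 with 1 probe per gene name or the filter on all 12 arrays, and 2 to 5 with single arrays left out. Turned signs were Mertk 0.01 and Itgav -0.16 with normexp (-0.15 without those spots) and Pros1 0.08 and Itgav 0.28 with quantile normalization and the deposited table. With single arrays left out the ranges were -0.15 to 0.15 for Pros1 and -0.27 to 0.13 and -0.02 to 0.67 for 2 Itgav probes.

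Between cell types in wild type 1 Itgav probe turned to -0.10 with quantile normalization and -0.11 with the deposited table (-0.04 to 0.56 with single arrays left out). The probes called, 20844, became 13765 with 1 probe per gene name, and 18476 in Rheb1-/- samples became 12139. In both genotypes the members that rose, 14, became 7 with 1 probe per gene name or the filter on all 12 arrays, which test fewer probes, and 1 to 2 fell in wild type with single arrays left out. Replicate numbers did not pair the samples: same-numbered arrays correlated at -0.161 to 0.135 after group means were removed, 2 of 12 over 0.1, and 4 of 12 arrays correlated best with their own number. With the replicate block 28, 7942, 1760, 20627 and 18293 probes were called, against 26, 8580, 2546, 20844 and 18476 without it, in the order progenitors, myeloid cells, difference, wild-type and Rheb1-/- cell types. Causes not named above were not tested. Few arrays and, for Mertk, Cd36 and Tyro3 in progenitors, signals near background limit what could be seen.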
